A study of Mus musculus with 24 samples.

Results

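The Bcl2 family sets whether a T helper cell lives or dies through its mitochondria, and 10 of its genes were followed here across resting, reactivated and drug-treated Th1 and Th2 cells. The genes were taken by name, with no threshold on measured values: the survival members Bcl2, Bcl2l1 (Bcl-xL) and Mcl1, the pore-forming members Bax and Bak1, and the BH3-only members Bcl2l11 (Bim), Bad, Bid, Pmaip1 (Noxa) and Bbc3 (Puma). They are 10 of the 20028 genes named on the array, and 13 of its 55681 probes report them. All 13 probes were read on all 24 arrays; Bcl2l1, Mcl1 and Bad have 2 probes each, and the brighter probe stands for the gene unless the dimmer one is named. All 10 genes passed the filter on dim signals in every model fit below; in the restimulation pairs with 10 µM flavopiridol Bcl2l11 did not.

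Survival members hold Bax and Bak1 inactive at the outer mitochondrial membrane. BH3-only members are the sensors of growth factor loss, DNA damage and antigen stimulation, and they free or switch on Bax and Bak1, which then open the membrane and release cytochrome c. In T cells, Bim removes cells after an immune response, Bcl-xL is raised by costimulation, and Mcl-1 is a short-lived protein that lymphocytes need at every stage.

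The arrays compared in vitro differentiated Th1 and Th2 cells of female C57BL/6 mice with naive T cells, and asked how the BET bromodomain inhibitor JQ1 and flavopiridol, which blocks the kinase P-TEFb that releases paused RNA polymerase II, alter T helper transcription at rest and after restimulation through the T cell receptor. Every sample was labelled with Cy3 and shared its array with 1 kind of reference, Cy5-labelled RNA of naive CD4+CD62L+CD25-CD44lo T cells of lymph nodes and spleens, so a value is the log2 ratio of the sample to naive cells. There were 14 arrays of Th1 and 10 of Th2 cells, 1 for each condition.

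Each condition was run unstimulated and reactivated. Th1 cells received DMSO, 50 nM JQ1, 500 nM JQ1, 1 µM flavopiridol or 10 µM flavopiridol for 6 hr, and DMSO or 500 nM JQ1 for 24 hr as well. Th2 cells received the same 5 treatments for 6 hr, except that the labels of the Th2 DMSO arrays give both 24 hr and 6 hr, so the time of those controls is unclear. No condition was replicated and no dyes were swapped, so a difference between 2 conditions rests on 1 array each. Errors come from the spread of a difference over cell types, stimulation states, treatments or times, depending on the comparison. The cells were polarised in culture and measured in bulk, so fewer cells of a type and less RNA per cell cannot be told apart.

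On each array, 35.5% to 52% of probes were well above background in Cy3, with 35.5% to 41.5% on the 8 flavopiridol arrays. Over 276 pairs of arrays the naive reference channel differed by a median SD of 0.18 log2 units over 25108 probes. All 7 T cell markers were well above background on all 24 arrays. Of 5 myeloid markers, Csf1r and Itgam were so on all 24 arrays, with DMSO ratios below naive, Adgre1 on 6, Cd14 on 3 and Lyz2 on 0, and of the NK markers Ncr1 was so on 1 array and Klrb1c on 0. Every reactivated array lay on the slide of its unstimulated partner, and so did the 6 hr Th1 arrays of DMSO and JQ1. The Th2 JQ1 arrays and all flavopiridol arrays lay on other slides than their DMSO controls, so for these the slide and the drug cannot be told apart. After loess scaling the reactivated Th1 array of 500 nM JQ1 at 6 hr had a spike-in median of 0.895, against -0.709 to -0.293 on the other 6 hr Th1 arrays of its slide.

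**Figure D1:**
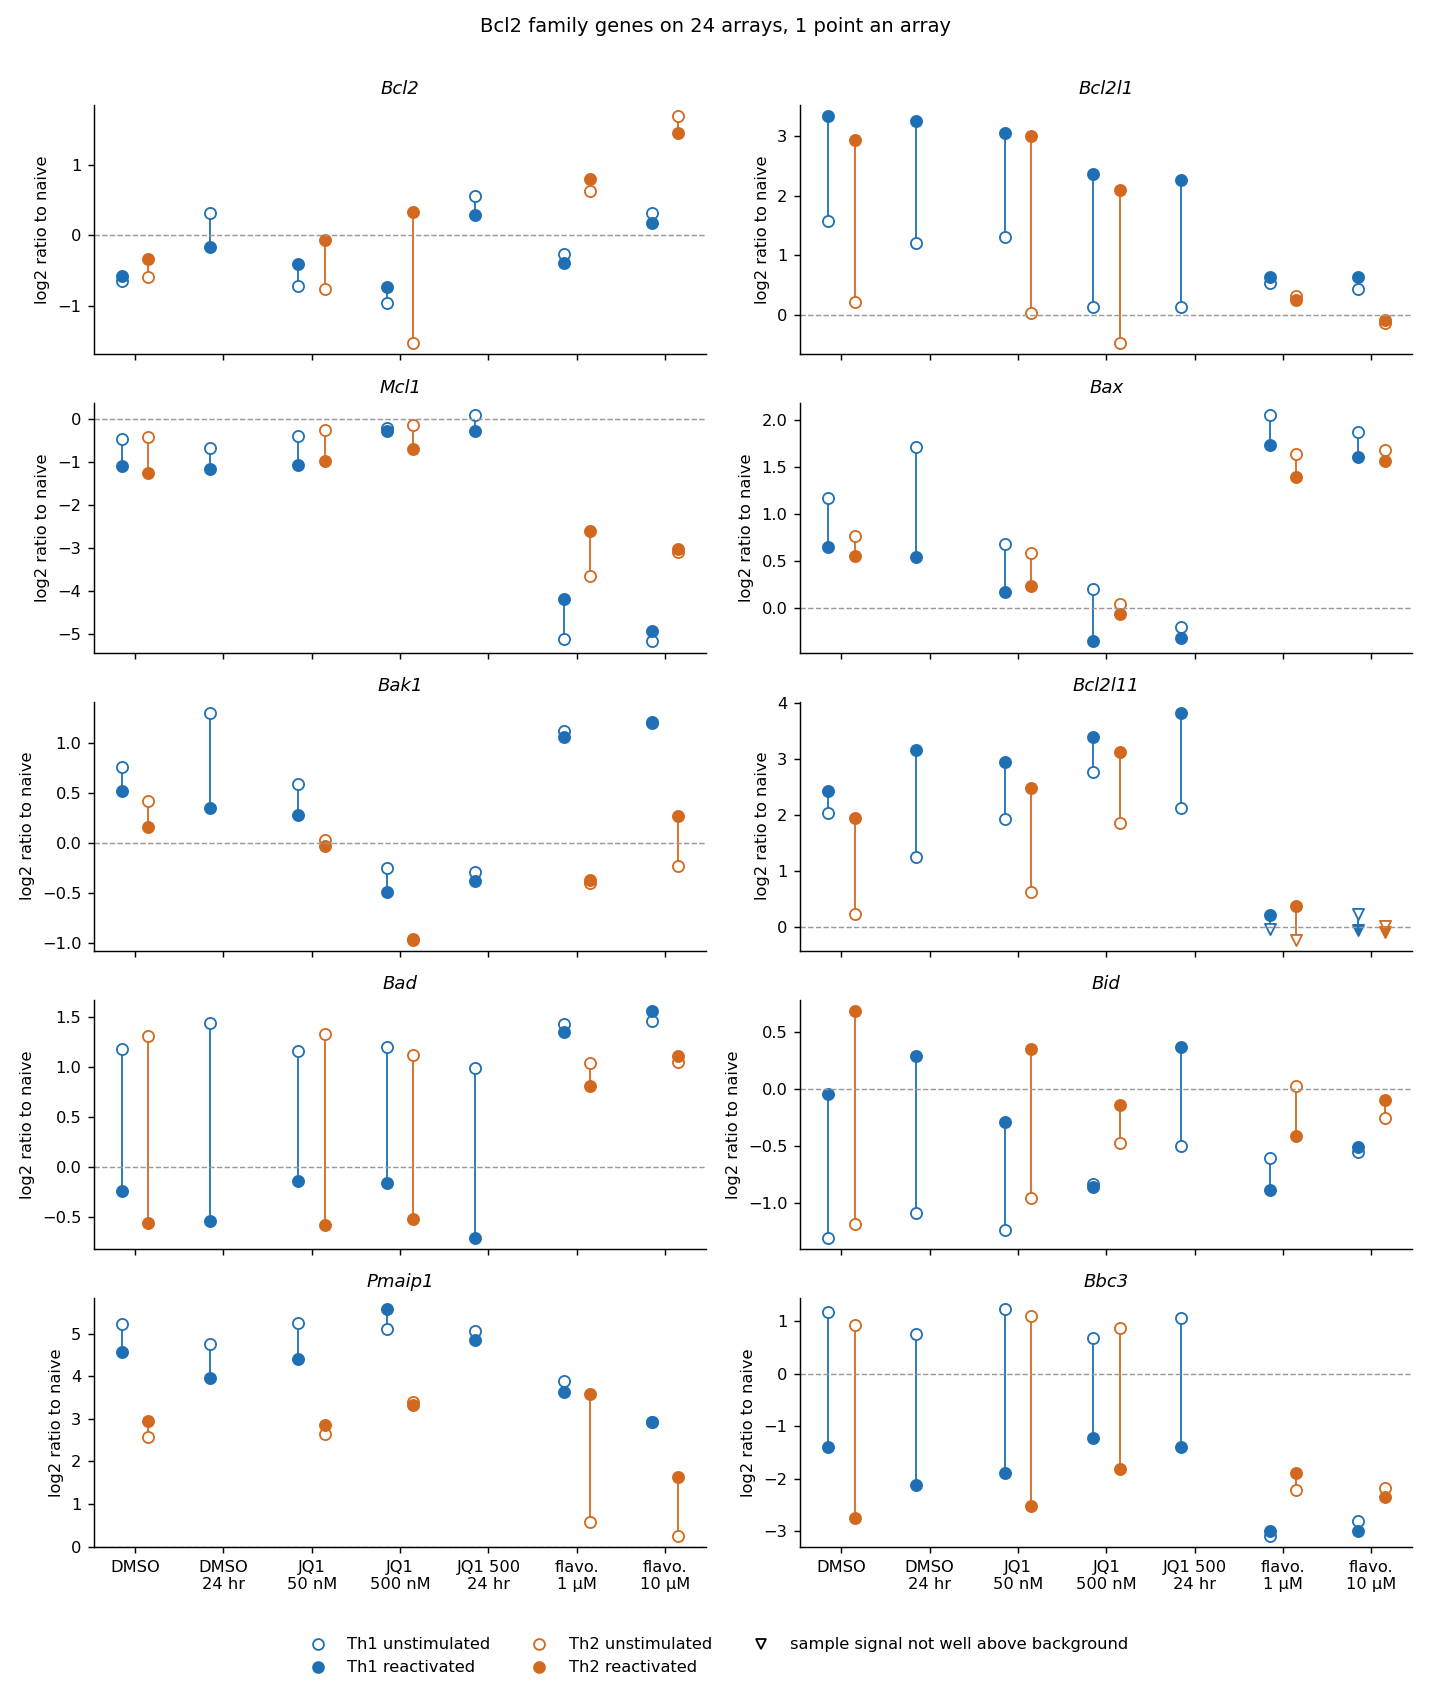
Log2 ratio of the sample to naive T cells (vertical axis) of each Bcl2 family gene by treatment (horizontal axis), 1 point an array, with a line joining the unstimulated and the reactivated array; the first DMSO column holds the Th1 cells at 6 hr and the Th2 cells of unclear time, and triangles mark a Cy3 signal not well above background. Mcl1 lies between -5.17 and -2.60 on the flavopiridol arrays and between -1.24 and 0.11 on all others.

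Before restimulation, the T helper cells already differed from naive cells in most of the family. Bcl2l1, Bax, Bak1, Bcl2l11, Bad, Pmaip1 and Bbc3 were higher than in naive cells on the 3 unstimulated DMSO arrays, and Mcl1 and Bid were lower. That is 9 of 10 members called by limma at an adjusted p below 0.05, against 53.4% of all genes tested, of which 31.1% were higher and 22.3% lower. Pmaip1, the BH3-only partner of Mcl-1, stood farthest from naive, with log2 ratios of 5.23 in Th1 cells at 6 hr, 4.76 at 24 hr and 2.57 in Th2 cells. All 3 lay far above naive, with the Th2 array lowest, and the mean was 4.18 ± 0.51 (SE, n = 3 arrays, adjusted p = 0.0023), 18.2-fold higher. The naive Cy5 signal of Pmaip1 on these arrays was only 6.14 to 6.35 log2 units, though counted as well above background. The size of this fold therefore rests on a dim reference.

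Bad, the BH3-only protein that growth factor signalling holds in check by phosphorylation, was 1.31 ± 0.11 log2 units above naive (adjusted p = 8.27e-04), and Bax was 1.22 ± 0.20 above it (adjusted p = 0.0055). Bid, which caspase-8 cleaves to link death receptors to mitochondria, was 1.19 log2 units below (log2 ratio -1.19 ± 0.11, adjusted p = 0.00103). Mcl1 was lower as well, at -0.51 ± 0.11 (adjusted p = 0.0154). The log2 ratio of Bcl2 was -0.31 ± 0.22, with an adjusted p of 0.279, so its level was not separated from that of naive cells. The median over the 10 members was 0.97, against 0.08 over all genes tested.

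These tests have 3 arrays against 1 reference labelled with the other dye, so they leave out the spread of naive cells, and dye and cell state cannot be told apart. The calls of Bcl2l1, Bcl2l11, Bak1 and Mcl1 were lost without either Th1 array, with adjusted p up to 0.137, whereas those of the other 5 were kept; under 3 other scalings the median of all genes moved to -0.37, 0.71 and 0.40, and relative to it Pmaip1 stayed between 4.08 and 4.1. Mcl1 was at -0.13 and -0.19 and not called under the spike-in settings, and Bcl2l1, Bcl2l11, Bak1 and Bbc3 were not called under median centring, at 0.46, 0.77, 0.26 and 0.4.

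Restimulation of cells without drug raised Bcl2l1, Bid and Bcl2l11 and lowered Bbc3, Bad and Bax. Mcl1 was called lower on its brighter probe and higher on its dimmer one, so its direction is not settled. These 7 of 10 calls, made on the brighter probes, compare with 50.9% of all genes, of which 21.9% rose and 29% fell, so the share of members called is only moderately above the background. Of the BH3-only members 2 rose and 2 fell, and of the pore-forming members Bax fell.

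Among survival genes, Bcl2l1 had log2 ratios to naive of 1.58 and 3.33 in Th1 cells at 6 hr before and after restimulation, 1.20 and 3.26 at 24 hr, and 0.22 and 2.94 in Th2 cells. The reactivated arrays all lay above the unstimulated ones with no overlap, and the unstimulated level was higher in Th1 than in Th2 cells. The log2 difference was 2.18 ± 0.20 (SE, 3 of 3 pairs higher, adjusted p = 4.58e-04), a 4.53-fold rise. The dimmer Bcl2l1 probe gave 2.32 ± 0.15. The Cy5 signal of the brighter probe varied with an SD of 0.35 log2 units over arrays, more than for the other brightest probes, and Cy3 alone gave 2.98.

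Mcl1 gave opposite answers from its 2 probes. On the brighter probe the unstimulated log2 ratios were -0.46, -0.66 and -0.41 and the reactivated ones -1.09, -1.16 and -1.24, for Th1 6 hr, Th1 24 hr and Th2 in that order. The reactivated arrays were lower with no overlap, and the log2 difference was -0.66 ± 0.13 (adjusted p = 0.00674). On the dimmer probe the unstimulated ratios were -0.26, -0.60 and -0.70 and the reactivated ones 0.12, 0.14 and 0.20. There the reactivated arrays were higher with no overlap, by 0.67 ± 0.14 (adjusted p = 0.00861). The mean of both probes moved by 0.0087, so the direction of Mcl1 on restimulation depends on the probe.

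**Figure D2:**
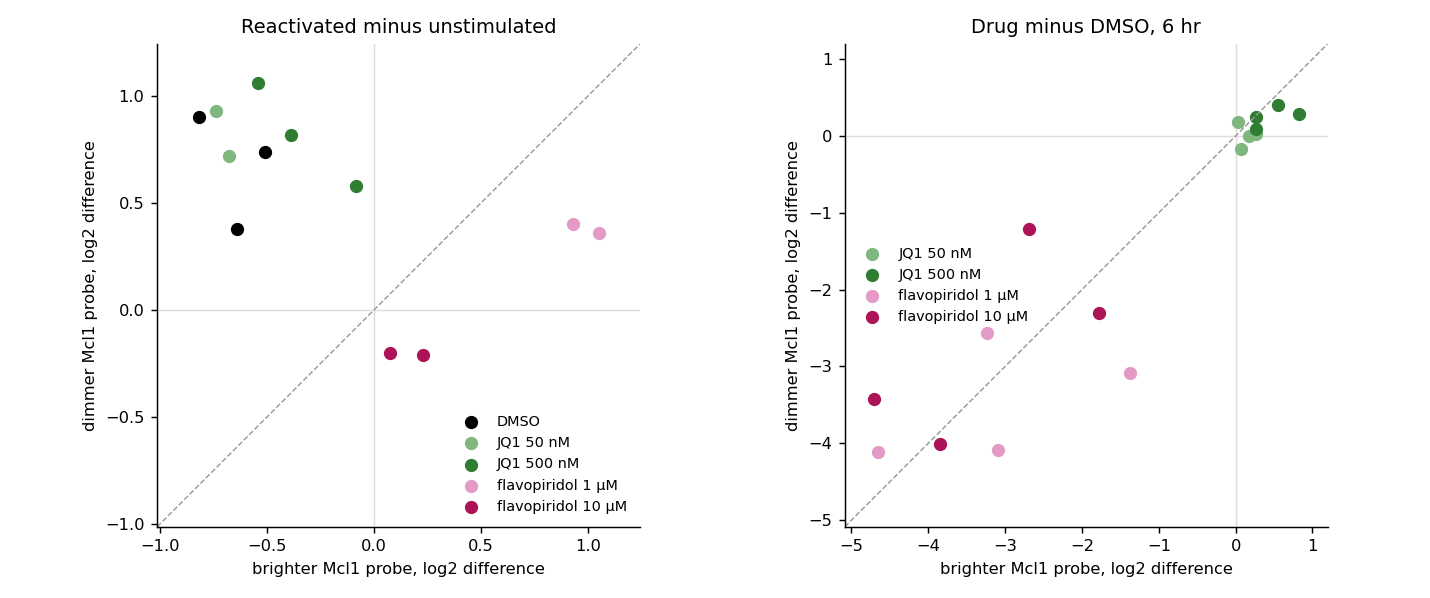
Log2 differences on the brighter Mcl1 probe (horizontal axis) and the dimmer one (vertical axis), 1 point for each pair of arrays, for reactivated minus unstimulated cells and for drug minus DMSO, coloured by treatment. Without drug the brighter probe gave -0.82 to -0.51 on restimulation and the dimmer one 0.38 to 0.90, whereas both lay far below 0 for 10 µM flavopiridol minus DMSO.

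Bcl2, the founding survival member, had no shared direction on restimulation. Its log2 differences were 0.09 in Th1 cells at 6 hr, -0.49 at 24 hr and 0.25 in Th2 cells, and the estimate was -0.05 ± 0.17 (95% interval -0.47 to 0.37, adjusted p = 0.837).

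The pore-forming genes were lower after restimulation in all 3 pairs. Bax went from 1.17 to 0.65 in Th1 cells at 6 hr, from 1.72 to 0.54 at 24 hr and from 0.76 to 0.55 in Th2 cells on the log2 ratio scale. The groups did not overlap, although the lowest unstimulated array lay close to the highest reactivated one. Bax fell by 0.64 log2 units (SE 0.20, adjusted p = 0.0361), and this call was lost without either Th1 pair (adjusted p up to 0.178). Bak1 gave -0.49 ± 0.18, with an adjusted p of 0.0592.

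BH3-only genes moved in both directions. For Bbc3, a p53 target whose protein binds every survival member, the log2 ratios were 1.18, 0.75 and 0.92 on the unstimulated arrays and -1.40, -2.12 and -2.74 on the reactivated ones. Unstimulated cells lay above naive and reactivated cells well below it, with no overlap. The fall of 3.04 log2 units (SE 0.22, adjusted p = 2.77e-04, 8.20-fold) was the largest among the members.

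Bad fell from 1.18, 1.44 and 1.31 to -0.24, -0.54 and -0.56. The separation was complete here too, at a log2 difference of -1.76 ± 0.15 (adjusted p = 4.09e-04), and the dimmer Bad probe gave -1.13 ± 0.11. Bid moved the other way, from -1.30, -1.08 and -1.18 to -0.05, 0.29 and 0.68. All 3 reactivated arrays were higher, by 1.5 ± 0.16 (adjusted p = 6.98e-04), which brought Bid from below naive to about its level.

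Bcl2l11 rose as well, from log2 ratios of 2.04, 1.25 and 0.22 to 2.43, 3.16 and 1.94. The groups overlapped, since Th1 cells at 6 hr started above the reactivated Th2 cells, but each pair was higher after restimulation, by 0.40, 1.91 and 1.72. The estimate was 1.34 ± 0.29 (adjusted p = 0.00996). Pmaip1 was lower in both Th1 pairs and higher in the Th2 pair, and its estimate of -0.36 ± 0.24 was not called (adjusted p = 0.259). The residual spread of this comparison has few degrees of freedom, and limma borrows from all genes to set it.

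Bcl2l11 and Bbc3, which restimulation moved in opposite directions, are known targets of forkhead (FoxO) factors, and Mcl1 had the lowest estimate against DMSO under flavopiridol. The 250 bases before 1 RefSeq start of each are therefore shown (GRCm38.p6, plus strand, 5′ to 3′), at chr2:128125788-128126037 for Bcl2l11, chr7:16310011-16310260 for Bbc3 and chr3:95658471-95658720 for Mcl1. Capitals mark the forkhead letters GTAAACA or their reverse complement TGTTTAC.

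Bcl2l11: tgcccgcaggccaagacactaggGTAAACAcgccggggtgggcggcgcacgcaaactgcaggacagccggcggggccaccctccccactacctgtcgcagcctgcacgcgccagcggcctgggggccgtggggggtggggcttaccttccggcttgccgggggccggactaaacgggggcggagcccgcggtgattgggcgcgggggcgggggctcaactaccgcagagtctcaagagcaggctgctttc

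Bbc3: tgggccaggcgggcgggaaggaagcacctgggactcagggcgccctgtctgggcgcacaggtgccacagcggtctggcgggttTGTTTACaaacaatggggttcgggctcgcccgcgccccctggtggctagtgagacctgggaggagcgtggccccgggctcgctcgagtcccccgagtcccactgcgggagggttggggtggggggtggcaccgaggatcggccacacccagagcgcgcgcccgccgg

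Mcl1: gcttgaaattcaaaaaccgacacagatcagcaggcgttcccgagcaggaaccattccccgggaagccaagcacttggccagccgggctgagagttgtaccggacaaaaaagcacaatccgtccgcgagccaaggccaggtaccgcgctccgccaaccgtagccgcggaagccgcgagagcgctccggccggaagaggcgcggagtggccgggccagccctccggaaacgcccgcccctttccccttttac

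The match began 227 bases before the start in Bcl2l11 and 167 bases before it in Bbc3, where it lies on the other strand. No match stood in the Mcl1 window, in the other Bcl2l11 window or in the other Bbc3 windows, and the Bcl2l11 and Bbc3 windows shown were chosen for the match. RefSeq windows of 9 of the 10 members were searched, 15 windows in all, for 5 motifs on both strands. Pmaip1 was left out of this search, so statements on members' windows do not cover it. GTAAACA stood in 3.17% of 32851 promoter windows of this length. The other motifs were TATAAA (12.4% of windows), TGANTCA (6.75%), TGACGTCA (1.55%) and CACGTG (6.02%), none of which overlaps the forkhead letters. Of these only CACGTG occurred in members' windows, 9 bases before the Bax start and 64 bases before a further Bbc3 start. The matches are letters in a window, and no factor binding was measured.

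**Figure D3:**
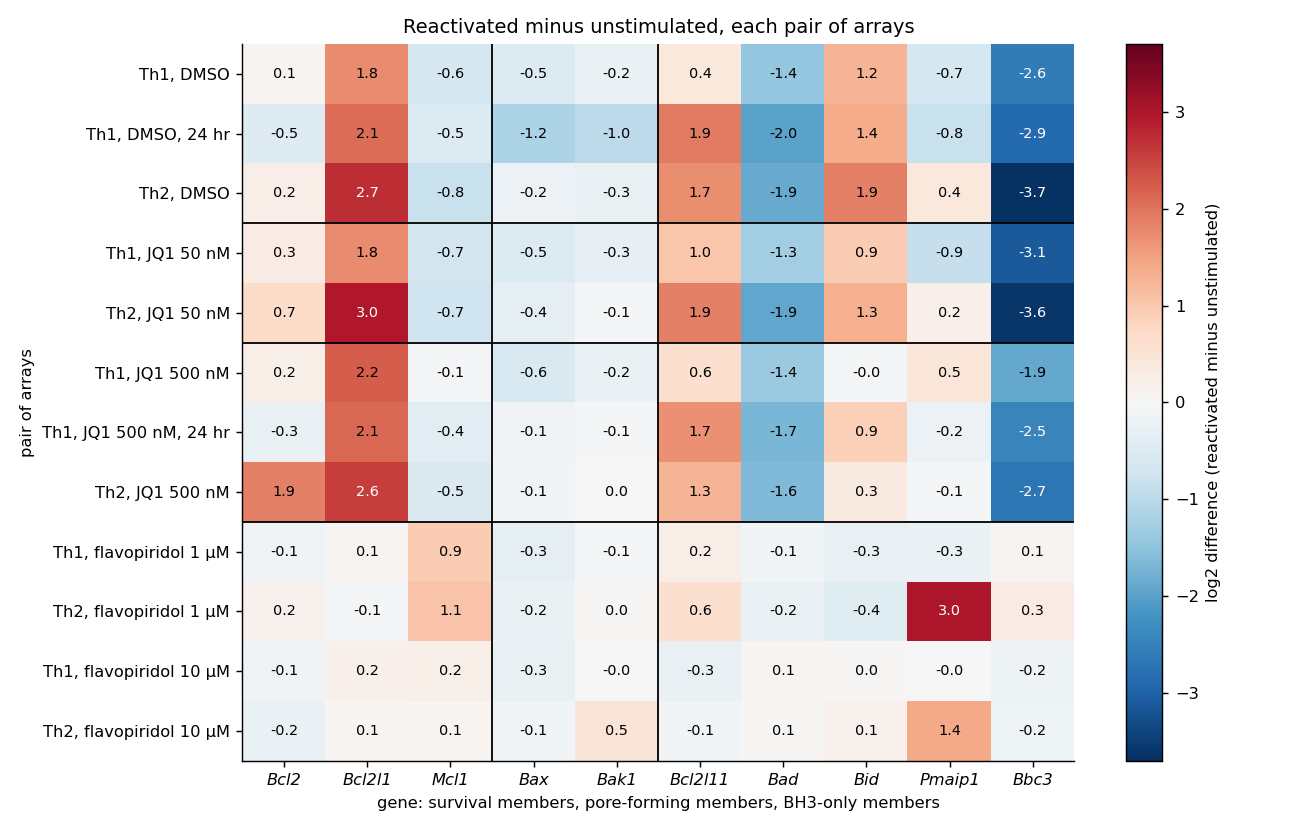
Log2 difference, reactivated minus unstimulated (colour), of each Bcl2 family gene (horizontal axis) in each of the 12 pairs of arrays (vertical axis). Bcl2l1 was 1.75 to 2.96 higher in the 8 pairs without flavopiridol and lay between -0.07 and 0.19 in the 4 pairs with it.

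Within pairs of arrays treated with JQ1, members differed between the stimulation states at least 2-fold in counts close to those of DMSO after loess scaling, and within flavopiridol pairs seldom. Over all genes the share was lower with 500 nM JQ1 than with DMSO and lowest with 10 µM flavopiridol. In DMSO, 4 of 10 members differed at least 2-fold within the Th1 6 hr pair, 6 in the Th1 24 hr pair and 5 in the Th2 pair, against 16.6%, 21.1% and 25.5% of all genes. With 50 nM JQ1 the counts were 4 in Th1 and 5 in Th2 cells (15.8% and 23.2% of genes). With 500 nM JQ1 they were 3 in Th1 cells at 6 hr, 4 at 24 hr and 5 in Th2 cells (11.3%, 17% and 17.8%), and the 6 hr Th1 count was 7 under the spike-in shift.

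With 1 µM flavopiridol, 0 members reached 2-fold in Th1 cells and 2 in Th2 cells, against 1.91% and 5% of all genes. With 10 µM the counts were 0 of 9 members in Th1 and 1 of 9 in Th2 cells, against 0.783% and 0.896%. Bcl2l11, dim on both arrays of each 10 µM pair, is left out of these counts. The member in Th2 cells at 10 µM was Pmaip1. It stood at log2 ratios of 0.59 before and 3.59 after restimulation with 1 µM, and 0.25 and 1.63 with 10 µM. The other member in Th2 cells at 1 µM was Mcl1. Its brighter probe was 1.05 higher after restimulation there and 0.93 higher in Th1 cells, whereas in DMSO that probe was lower. These pairs are single arrays with no replicate check, and the 10 µM Th2 count was 0 when arrays were centred on their medians.

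Whether a drug effect differed between stimulation states was tested with an interaction term over the 4 combinations of cell type and state. For 500 nM JQ1, 1 of 10 members was called, Bid, against 10.1% of all genes. Under both spike-in scalings, which moved the median of all genes to -1.02 and -1.22, 7 were called. In DMSO at 6 hr in Th1 cells and in Th2 cells, restimulated Bid was 1.25 and 1.86 log2 units higher. With 500 nM JQ1 at 6 hr the differences were -0.03 and 0.33, so the reactivated arrays were no longer set apart, and unstimulated levels were 0.48 and 0.70 above DMSO while reactivated ones were 0.81 and 0.82 below it. The interaction was -1.41 ± 0.14 (SE, adjusted p = 0.00113), and the call was kept without each combination in turn (adjusted p up to 0.0304) but lost without the block for cell type and state. Relative to the median of all genes it was -1.41 to -1.40 over 4 scalings. At 24 hr, which did not enter this fit, Bid was 0.88 higher after restimulation in Th1 cells with 500 nM JQ1.

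For 10 µM flavopiridol 4 of 10 members were called, against 15.8% of all genes, but 2 under median centring, 1 under spike-in centring, 0 under the spike-in shift and 1 without the block. The interaction was -2.11 ± 0.37 for Bcl2l1 (adjusted p = 0.0126), 1.72 ± 0.26 for Bad (adjusted p = 0.00784), -1.46 ± 0.25 for Bid (adjusted p = 0.0117) and 2.94 ± 0.77 for Bbc3 (adjusted p = 0.0436). The dimmer Bad probe gave 1.38 ± 0.43 (adjusted p = 0.0894), and Bbc3 had an adjusted p of 0.0515 when every probe was tested on its own. The interaction subtracts the DMSO restimulation difference from that with drug, so its sign is not independent of the change without drug. All 4 calls were lost without the unstimulated Th1, reactivated Th2 or unstimulated Th2 combination, with adjusted p up to 0.238, while the estimates kept their signs.

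JQ1 at 500 nM lowered both pore-forming genes and Bcl2l1 and raised Bcl2l11, Mcl1 and Pmaip1. These are 6 of 10 members, against 47.6% of all genes tested, of which 17.7% were higher and 29.9% lower. Fewer members were called without the block for cell type and state and under the spike-in shift. Bak1 had the lowest adjusted p of the family. Its log2 ratios in DMSO and in 500 nM JQ1 were 0.76 and -0.25 in unstimulated Th1 cells, 0.52 and -0.49 in reactivated Th1 cells, 0.42 and -0.97 in unstimulated Th2 cells, and 0.16 and -0.96 in reactivated Th2 cells. All DMSO arrays lay above naive and all JQ1 arrays below it. Bak1 fell by 1.13 log2 units (SE 0.081, 4 of 4 lower, adjusted p = 4.88e-06, 2.19-fold).

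Bax fell by 0.83 log2 units (SE 0.085, 4 of 4 lower, adjusted p = 3.39e-05). Its log2 ratios of 1.17, 0.65, 0.76 and 0.55 in DMSO became 0.20, -0.36, 0.04 and -0.07 in JQ1, in the same order of conditions. The groups did not overlap. In Th1 cells, where both arrays shared a slide, the differences were -0.97 and -1.01 for Bax and -1.01 and -1.01 for Bak1. The 24 hr Th1 pairs, which did not enter this fit, gave -1.93 and -0.88 for Bax and -1.59 and -0.72 for Bak1.

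Among survival genes, Bcl2l1 fell by 0.98 log2 units (SE 0.12, adjusted p = 8.93e-05). The log2 differences of the conditions were -1.43 and -0.96 in unstimulated and reactivated Th1 cells and -0.69 and -0.84 in Th2 cells, all below 0, and Cy3 alone gave -1.36. Mcl1 was 0.48 ± 0.11 higher (4 of 4 higher, adjusted p = 0.00502), although its difference was 0.18 and not called with median centring and -0.09 when arrays were centred on their spike-in probes. Bcl2 had differences of -0.30, -0.16, -0.93 and 0.67, and the estimate was -0.18 ± 0.19 (95% interval -0.61 to 0.25, adjusted p = 0.471).

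Bcl2l11 was the member that rose most under JQ1. Its log2 ratios in DMSO were 2.04 and 2.43 in Th1 and 0.22 and 1.94 in Th2 cells, unstimulated and then reactivated, and with 500 nM JQ1 they were 2.77 and 3.39 in Th1 and 1.85 and 3.12 in Th2 cells. Each condition was higher with JQ1, and the ranges overlapped, with unstimulated Th2 cells lowest in both. The rise was 1.12 ± 0.14 log2 units (adjusted p = 1.39e-04, 2.18-fold), and the 24 hr Th1 pairs gave 0.87 and 0.66. Relative to the median of all genes, which was -0.07 here and -0.28 to -0.62 under 3 other scalings, the Bcl2l11 difference was 1.12 to 1.2. The call itself was lost under both spike-in scalings, at 0.57 and 0.58.

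Pmaip1 rose by 0.53 ± 0.18 (3 of 4 higher, adjusted p = 0.0296), but the call was lost without reactivated Th1, unstimulated Th2 or reactivated Th2 cells (adjusted p up to 0.14), and the difference was -0.03 with arrays centred on spike-ins. Bad, Bid and Bbc3 were not called, with estimates of -0.01, -0.11 and 0.13. For Bad the 95% interval ran only from -0.18 to 0.15. The median over members was -0.06 and that over all genes -0.07.

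At 50 nM, 0 of 10 members were called by limma, against 0.341% of all genes, and 3 members had an unadjusted p below 0.05. The lowest adjusted p was 0.101, for Bax, at -0.37 ± 0.085. Bak1 gave -0.25 ± 0.081 and Bcl2l11 0.33 ± 0.14, and both doses share the DMSO arrays. All member estimates had 95% intervals within -0.59 to 0.65.

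**Figure D4:**
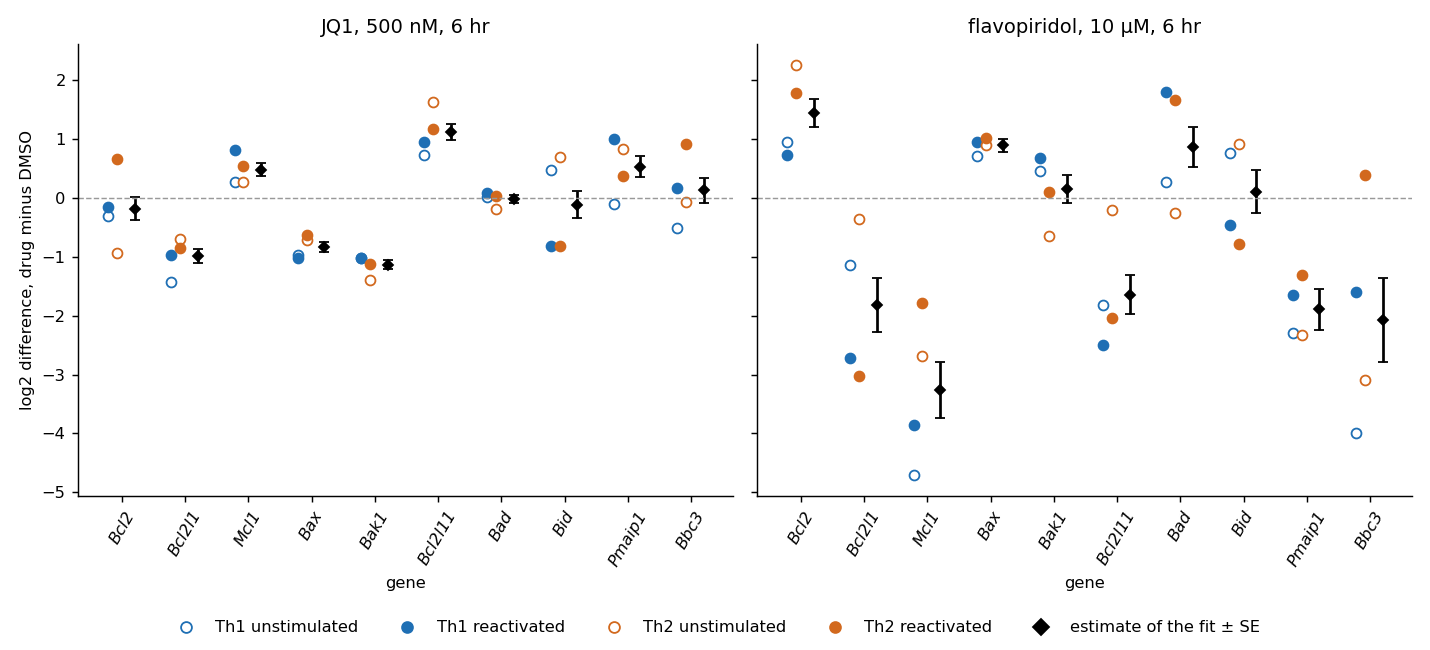
Log2 difference, drug minus DMSO (vertical axis), of each Bcl2 family gene (horizontal axis) for 500 nM JQ1 and 10 µM flavopiridol, with points for the 4 combinations of cell type and state and a diamond for the estimate of the fit with its SE. Bak1 and Bax lie below 0 in all 4 combinations under JQ1, and Mcl1 lies between -4.71 and -1.78 under flavopiridol.

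Flavopiridol at 10 µM lowered Mcl1, Bcl2l1, Bcl2l11, Pmaip1 and Bbc3, and Bcl2 and Bax were higher after loess scaling. These are 7 of 10 members, or 6 of 9 without Bcl2l11, which the filter kept only through its DMSO arrays, against 48.9% of all genes tested, of which 15.4% were higher and 33.5% lower. Mcl1 changed most. On its brighter probe the DMSO log2 ratios of -0.46, -1.09, -0.41 and -1.24 became -5.17, -4.94, -3.10 and -3.02, for unstimulated and reactivated Th1 and then Th2 cells. All drug arrays lay far below all DMSO arrays, and the differences were farther from 0 in Th1 cells. The estimate was -3.26 ± 0.48 (4 of 4 lower, adjusted p = 6.82e-04), 9.56-fold, and it kept its call without each condition in turn (adjusted p up to 0.00977).

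The dimmer Mcl1 probe fell by 2.74 log2 units (adjusted p = 5.96e-04), so the 2 probes shared this direction though not that of restimulation. At 1 µM the brighter probe already stood at -5.12 and -4.19 in Th1 and -3.65 and -2.60 in Th2 cells, a difference from DMSO of -3.09 ± 0.48 (adjusted p = 7.58e-04). The intervals of the 2 doses overlapped over most of their length, at -4.34 to -2.17 for 10 µM and -4.17 to -2 for 1 µM.

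Bcl2 stood opposite to Mcl1. Its log2 ratios in DMSO were -0.65, -0.57, -0.59 and -0.34, and with 10 µM flavopiridol they were 0.31, 0.18, 1.68 and 1.44. All drug arrays were above all DMSO arrays, most so in Th2 cells. The difference was 1.44 ± 0.24 (adjusted p = 0.00135) at 10 µM and 0.73 ± 0.24 (adjusted p = 0.0315) at 1 µM. The 1 µM call was lost without unstimulated Th1 cells or either Th2 condition (adjusted p up to 0.131). The direction depends on the scaling: with arrays centred on spike-in probes Bcl2 was -0.29 at 10 µM and -0.83 at 1 µM, and with median centring it was 0.31 and -0.29.

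Bax was 0.90 ± 0.11 above DMSO at 10 µM (4 of 4 higher, adjusted p = 3.11e-04) and 0.93 ± 0.11 at 1 µM (adjusted p = 2.10e-04), with log2 ratios of 1.39 to 2.06 on all 8 flavopiridol arrays against 0.55 to 1.17 on the 4 DMSO arrays of this fit. It too turned with the scaling, to -0.22 with median centring and -0.83 with spike-in centring at 10 µM, and to -0.0063 and -0.54 at 1 µM. The median of all genes moved from -0.22 to -1.06 and -1.66 under those scalings, and to -1 when loess values were shifted to the spike-ins. Relative to that median, Bcl2 was 1.37 to 1.66 and Bax 0.83 to 1.12 higher, and Mcl1 was at -3.09 to -3.04, over all 4 scalings.

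**Figure D5:**
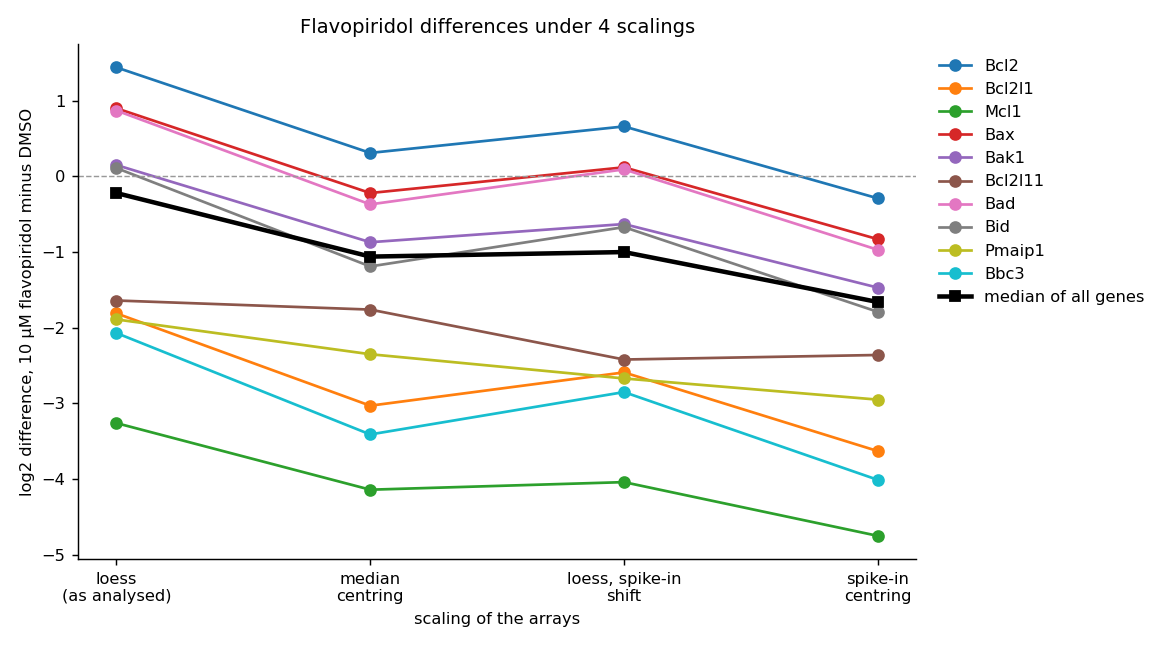
Log2 difference, 10 µM flavopiridol minus DMSO (vertical axis), of the Bcl2 family genes and of the median gene (black) under 4 scalings of the arrays (horizontal axis). The median gene moves from -0.22 to -1.66, Bcl2 from 1.44 to -0.29, and Mcl1 stays lowest throughout.

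Of the BH3-only genes, Bcl2l11 passed the filter through its DMSO arrays and had no Cy3 signal well above background on 6 of the 8 flavopiridol arrays, the exceptions being both reactivated arrays at 1 µM. A member that enters this way had to differ, so its call is no support and only the bound is given. Against DMSO it was at least 3.18-fold lower at 10 µM, computed in Cy3 from, on each drug array, the higher of the lowest signal counted as above background and the probe's own signal; the means of these equalled the probe's own (6.74 on the log2 scale, against 8.41 in DMSO). Single conditions gave at least 3.79-fold and 5.35-fold in unstimulated and reactivated Th1 cells, and at least 1.26-fold and 4.02-fold in Th2 cells. Bcl2l11 thus moved down with flavopiridol and up with 500 nM JQ1.

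Pmaip1 fell by 1.89 log2 units (SE 0.35, 4 of 4 lower, adjusted p = 0.00234), from DMSO ratios of 5.23, 4.57, 2.57 and 2.94 to 2.93, 2.92, 0.25 and 1.63. The naive reference signal of Pmaip1 was not well above background on 1 array, reactivated Th1 with 10 µM, so the ratio of 2.92 there has no measured reference. Each Th1 array lay above the Th2 array of the same state with and without the drug. This call was lost with the scanner's own log ratio and without the block. Bbc3 fell by 2.07 log2 units (SE 0.71, adjusted p = 0.0392). The differences were -3.99 and -3.10 in unstimulated Th1 and Th2 cells, -1.60 in reactivated Th1 cells and 0.40 in reactivated Th2 cells. All 8 flavopiridol arrays had Bbc3 ratios between -3.09 and -1.90, which overlap the range of reactivated DMSO cells. The Bbc3 call was lost without either Th1 condition or unstimulated Th2 cells (adjusted p up to 0.158) and with the slide as a random block (adjusted p = 0.134).

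Bcl2l1 fell by 1.81 log2 units (SE 0.46, adjusted p = 0.011), mostly in reactivated cells. The differences were -2.71 in Th1 and -3.02 in Th2 cells after restimulation, and -1.14 and -0.36 before it. This call was lost without either reactivated condition (adjusted p up to 0.0634) and with slide as a random block (adjusted p = 0.0584). Bad was 1.80 and 1.67 above DMSO in reactivated Th1 and Th2 cells and 0.28 and -0.26 in unstimulated ones, with an estimate of 0.87 ± 0.34 (adjusted p = 0.0615). Bak1 (0.15 ± 0.24) and Bid (0.11 ± 0.36) were not called. These directions depend on the scaling, since spike-in centring gave Bad -0.97, Bak1 -1.47 and Bid -1.79.

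Markers of other cell types moved with flavopiridol too. From the DMSO to the flavopiridol arrays of Th1 cells, the summed Cy3 signal was 11700 to 15600 and then 4630 to 7210 for the 5 myeloid markers, 745 to 1150 and then 386 to 485 for the B cell markers, and 266 to 465 and then 546 to 648 for the CD8 T cell markers. In Th2 cells the myeloid sum was 15100 to 19300 in DMSO and 7350 to 13700 with the drug, the B cell sum 2760 to 4370 and 862 to 1230, and the CD8 sum 174 to 237 and 274 to 298. The Cy3 signal of the globin gene Hba-a1, a red cell marker, was 88.2 to 113 in DMSO and 145 to 180 with the drug in Th1 cells, and 115 to 118 and 191 to 239 in Th2 cells. Their part in the member differences was not tested.

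At 1 µM, 6 of 10 members were called, or 5 of 9 without Bcl2l11, against 51.7% of all genes (16.2% higher and 35.4% lower), and each had been called at 10 µM with the same sign. Besides Mcl1, Bcl2 and Bax they were Bcl2l1 at -1.58 (adjusted p = 0.0189), Bcl2l11, for which 2 of the 4 drug arrays at 1 µM were not well above background, and Bbc3 at -2.04 (adjusted p = 0.0398). The Bcl2l1 call was lost without either reactivated condition, and that of Bbc3 without either Th1 condition or unstimulated Th2 cells, with adjusted p up to 0.111 and 0.174. With slide as a random block the calls of Bcl2, Bcl2l1 and Bbc3 were lost (adjusted p = 0.085, 0.0855 and 0.133). Pmaip1 was at -0.91 ± 0.35 (adjusted p = 0.057).

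The inhibitors were compared directly at their higher doses on 8 arrays at 6 hr, with 7 of 10 members called, or 6 of 9 without Bcl2l11, which was dim on all 4 flavopiridol arrays, against 49.4% of all genes (18.7% higher and 30.7% lower). Relative to 500 nM JQ1, 10 µM flavopiridol gave higher Bax (1.73 ± 0.15, adjusted p = 7.45e-04), Bcl2 (1.62 ± 0.40, adjusted p = 0.0179) and Bak1 (1.28 ± 0.20, adjusted p = 0.00347). With spike-in centring these were 0.61, 0.5 and 0.24 and not called, and Bcl2 and Bak1 were not called under median centring or the spike-in shift either. It gave lower Mcl1 (-3.73 ± 0.47, adjusted p = 0.00183), Pmaip1 (-2.42 ± 0.26, adjusted p = 0.00119) and Bbc3 (-2.20 ± 0.49, adjusted p = 0.0121), and Bcl2l11 at least 6.35-fold lower. Bcl2l1, lower than DMSO with both drugs, differed by -0.83 ± 0.48 (95% interval -2.01 to 0.36, adjusted p = 0.203). The drugs act on different proteins and their doses were not matched.

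Th1 cells had more Pmaip1, Bcl2l11, Bcl2l1 and Bak1 than Th2 cells and less Bid, over the arrays of DMSO and both JQ1 doses. These are 5 of 10 members, against 28.6% of all genes, with 14.5% higher and 14.1% lower. Pmaip1 ratios lay between 4.40 and 5.57 on the 6 Th1 arrays and between 2.57 and 3.39 on the 6 Th2 arrays. The cell types did not overlap, and the log2 difference was 2.07 ± 0.17 (6 of 6 higher, adjusted p = 1.18e-04), 4.20-fold. Bcl2l11 was 0.88 higher (SE 0.19, adjusted p = 0.0115), Bak1 0.46 higher (SE 0.073, adjusted p = 0.00274) and Bid 0.47 lower (log2 difference -0.47, SE 0.096, adjusted p = 0.00818).

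For Bcl2l1 the brighter probe gave 0.66 ± 0.18 (adjusted p = 0.0248) and the dimmer one 0.24 (adjusted p = 0.148), and the call was lost without any of the 3 unstimulated conditions (adjusted p up to 0.0673). In DMSO both cell types lay on 1 slide, where Pmaip1 was 2.66 higher in unstimulated and 1.63 higher in reactivated Th1 cells. The calls of Bak1 and Bcl2l1 were lost under all 3 other scalings and that of Bid under the spike-in shift, and without the block that of Pmaip1 alone was kept. The Th2 DMSO time is unclear, so time may differ there between the cell types.

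The B cell markers differed between the same cells. Of 4 markers read, 0 were well above background on all 24 arrays and 2 (Ms4a1 and Cd79b) on all 6 DMSO arrays, and their summed Cy3 signal was 459 to 1150 on Th1 and 1900 to 4370 on Th2 arrays without flavopiridol. Of the CD8 T cell markers, Cd8a had DMSO log2 ratios of 0.86 to 1.87 in Th1 and -0.11 to -0.02 in Th2 cells. Cd8b1 lay below naive in both, at -1.37 to -0.82 in Th1 and -1.85 to -1.26 in Th2 cells. Cd8a was well above background on 4 of the 6 DMSO arrays and Cd8b1 on all 6. The summed Cy3 signal of Cd8a and Cd8b1 was 188 to 465 on Th1 and 148 to 237 on Th2 arrays without flavopiridol. The summed Cy3 signal of the Th1 markers was 10400 to 748000 on Th1 and 796 to 17000 on Th2 arrays without flavopiridol. That of the Th2 markers was 1160 to 10600 and 6100 to 37500, so the ranges of both lists overlapped between the cell types. The part of any of these markers in the cell type differences was not tested.

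No member was called for a difference of the drug effects between Th1 and Th2 cells after loess scaling. Under spike-in centring and under the spike-in shift a member was called for flavopiridol. With limma, 0 of 10 were called for 500 nM JQ1 (0% of all genes, 0 members at an unadjusted p below 0.05) and 0 for 10 µM flavopiridol (0.0161% of genes, 3 members at an unadjusted p below 0.05). The largest of these estimates was that of Mcl1 under flavopiridol, -2.05 ± 0.72 (adjusted p = 0.323). The 95% intervals reached from -1.60 to 1.12 over the members for JQ1 and from -5.12 to 2.35 for flavopiridol. Such wide intervals mean that the lack of calls does not show equal effects in the cell types.

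In Th1 cells, 24 hr was compared with 6 hr over DMSO and 500 nM JQ1 on 8 arrays. Bcl2 was the 1 member called, against 5.28% of all genes. Its log2 ratios were -0.65, -0.57, -0.96 and -0.73 at 6 hr and 0.32, -0.17, 0.56 and 0.29 at 24 hr, for DMSO unstimulated and reactivated and then JQ1 unstimulated and reactivated. All 24 hr arrays lay above all 6 hr arrays, by 0.98 ± 0.17 (adjusted p = 0.0254). The 24 hr arrays shared a slide with the Th2 flavopiridol arrays; Bcl2 ratios ran from -0.17 to 1.68 on that slide and from -1.52 to 0.33 on the other slides. Time and slide cannot be told apart, and the call was lost without unstimulated DMSO cells or either JQ1 condition (adjusted p up to 0.0952). It was also lost under both spike-in settings, with the scanner's own log ratio and without the block.

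Other genes of the pathway were taken from 4 lists: 14 further Bcl2 family genes, 14 genes of the mitochondrial death machinery, 7 inhibitors of apoptosis and 10 genes of the death receptor pathway. On restimulation without drug, 1 of the 10 further family genes tested rose and 6 fell, beside 21.9% and 29% of all genes. Bcl2a1d, a survival gene of the A1 cluster whose near-identical copies can share a probe, rose by 2.99, and Bnip3, a BH3-only gene induced by hypoxia, fell by 2.48. In the death machinery 2 rose and 5 fell, with Casp9, the initiator caspase of the apoptosome, at -2.15 and its platform Apaf1 at -1.34.

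No inhibitor of apoptosis rose and 5 of 7 fell, Xiap by 1.02, while in the death receptor list 3 of 10 rose and 3 fell, against the same 21.9% and 29% of all genes. Cflar, the decoy that blocks caspase-8, rose by 2.5. With 500 nM JQ1, where 17.7% of all genes were higher and 29.9% lower, 1 of 10 further family genes was higher and 7 lower, with Bcl2l2, the survival gene for Bcl-w, at -1.42. In the death machinery 1 was higher and 2 lower, and among inhibitors of apoptosis 1 was higher and 2 lower. In the death receptor list 1 of 10 was higher and 7 lower, with Fas at -1.08 and Tnfsf10, the gene of the death ligand TRAIL, at -1.1.

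With 10 µM flavopiridol, where 15.4% of all genes were higher and 33.5% lower, the death receptor list held 0 higher and 7 lower of 10 genes, with Fas at -2.42, Fadd, its adaptor, at -1.52 and Ripk1 at -1.39. Of 8 further family genes tested 1 was higher and 2 lower, Bcl2a1d at -2.94. The death machinery had 0 higher and 6 lower of 14, and the inhibitors of apoptosis 0 higher and 4 lower of 7. Medians over the death receptor list were -0.40 on restimulation, -0.73 with JQ1 and -1.02 with flavopiridol, beside -0.05, -0.07 and -0.22 over all genes.

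As a description, the patterns of the survival members over the 24 arrays were set beside those of all genes well above background on every array. The log2 ratio of Bcl2l1 ran closest to Bcl2a1c (Pearson r = 0.986), Pdcd1lg2 (0.983) and Bcl2a1d (0.972), of which 2 belong to the A1 cluster. Mcl1 ran closest to Ell (0.984), Mtfr2 (0.979) and Ndor1 (0.978). No partners are given for Bcl2l11, which was not well above background on 6 of the arrays. Bcl2 had weaker partners, Prdx4 (0.841), Slc45a3 (0.823) and Hbb-bt (0.812). The arrays share the naive reference and the treatments, so these r values are over 24 points that are not independent.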

How the data were processed

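RNA of 24 samples was hybridised with naive reference RNA on 2-colour Agilent SurePrint G3 mouse arrays. The deposited scanner files hold spot intensities in Cy3 and Cy5, which the authors obtained with Agilent Feature Extraction 10.7.1.1, and its LogRatio column, a log10 of Cy5 over Cy3 per the file headers. The deposited value table of the authors holds log2 ratios of 34710 probes, with column medians of -0.017 to 0.014. Its normalization is not given in the sources used here; it correlated at r = 0.981 to 0.996 with the loess values, with slopes of 0.967 to 1.035, so its direction and scale are those of sample over naive in log2.

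Median intensities of 62976 spots (59305 not control spots) were corrected with normexp (offset 50) and scaled within each array by loess in limma 3.58.1 (R 4.3.3). Spots flagged as outliers (234 to 331 an array) were left out and spots of a probe averaged. Of 55681 probes, 26437 carried a symbol. Genes entered a comparison when the Cy3 signal passed the scanner's background call on 3 or more of its arrays. Linear models with cell type and state as a block were tested with limma at a Benjamini-Hochberg adjusted p below 0.05 over all genes, and with 1 array per condition the p-values measure the spread of differences between conditions, not between cultures. The precision is limited by the number of arrays. Single pairs were read at a 2-fold difference.

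The members and lists were chosen with earlier results of these data known. Named were all 10 members, from each further list the 3 lowest adjusted p among called genes or fewer, and the 3 genes of highest r for Bcl2, Bcl2l1 and Mcl1 (those for Bcl2l11 are not given, since it was dim on some arrays). Alternatives were median, spike-in (10 probes) and spike-shifted scaling, the scanner log ratio, the deposited table, Cy3 alone, all probes, no filter, slide as a block, no block and leaving out each condition. The tests were checked on simulated data. Sequences are RefSeq's; array probe sequences were not used here. Of the marker lists, the naive one is not given, and 2 listed items were left out of all values.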

Additional observations from a re-analysis of the deposited data

Results flagged for a closer look

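Drug effects on 5 member results differed between reactivated and unstimulated cells by the interaction term of the limma fit, which is what singled them out. With 500 nM JQ1 the difference was -1.41 for Bid, whose rise on restimulation was seen in DMSO in both cell types and was small or missing with the drug at 6 hr. With 10 µM flavopiridol it was -2.11 for Bcl2l1, 1.72 for Bad, -1.46 for Bid and 2.94 for Bbc3. The Bid result under JQ1 was called without each combination of cell type and state in turn, and the 4 flavopiridol results were not without 3 of the 4 combinations. The flavopiridol arrays lay on other slides than DMSO, and the reactivated Th1 array of 500 nM JQ1 had the highest spike-in median, 0.895. The part of these in the results was not tested.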

How the results depend on the processing

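Of 1909 values of single genes under the alternatives, 1717 kept direction and side of the threshold, 38 passed it only there, 125 no longer passed it and 29 changed sign with the value called in the reported setting, the alternative or both; sign changes of values called in neither are not counted. The causes were not tested beyond what each setting itself changes. The larger moves in counts of called members were as follows, and smaller moves are not all listed. With 500 nM JQ1 there were 3 under the spike-in shift and 2 without a block, and with 1 µM flavopiridol 3 with slide as a random block. The JQ1 effect by state gave 7 under spike-in centring, 7 under the shift, 0 without a block and 1 to 3 in leave-one-out. The flavopiridol effect by state gave 2 under median centring, 1 under spike-in centring, 0 under the shift, 1 without a block, 2 from only 8 arrays and 0 to 4 in leave-one-out. The flavopiridol effect by cell type gave 1 under spike-in centring and 1 under the shift. Th1 against Th2 gave 3 under median centring, 3 under spike-in centring, 2 under the shift and 1 without a block. For 24 hr against 6 hr there were 0 under both spike-in settings, 0 with the scanner log ratio, 2 in the deposited table, 2 with Cy3 alone, 0 without a block and 0 to 1 in leave-one-out, and against naive cells 5 to 9 in leave-one-out. Leave-one-out ranges were 6 to 8 for restimulation, 5 to 6 for 500 nM JQ1, 5 to 7 and 4 to 5 for 10 and 1 µM flavopiridol, 7 to 8 for flavopiridol against JQ1 and 4 to 5 for Th1 against Th2. Single pairs gave 7 members past 2-fold for Th1 with 500 nM JQ1 and 1 for Th2 with 1 µM flavopiridol under the shift, and 0 for Th2 with 10 µM under median centring.

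Among such called values, signs turned for restimulated Mcl1 with the mean of probes (0.0087) and the dimmer probe (0.67). With 500 nM JQ1 they turned for Mcl1 (-0.09 and -0.066) and Pmaip1 (-0.031 and -0.016) under spike-in centring and shift. With 10 µM flavopiridol median centring gave Bax -0.22 and Bid -1.19, and spike-in centring Bad -0.97, Bak1 -1.47, Bax -0.83, Bcl2 -0.29 and Bid -1.79. With 1 µM they gave Bax -0.0063 and Bcl2 -0.29, and Bax -0.54 and Bcl2 -0.83. The JQ1 effect by state turned to -0.98 for Bad, -0.99 for Bak1, -1.08 for Bax, -0.88 for Bcl2l1 and -0.77 for Mcl1 under spike-in centring, and to -1.07, -1.07, -1.18 and -1.05 for Bad, Bak1, Bax and Bcl2l1 and -0.89 for Pmaip1 under the shift. Bid in flavopiridol against JQ1 was -0.76 and -1.09 under median and spike-in centring. In Cy3, levels not well above background in a whole group bound Bcl2l11 and the dimmer Bcl2l1 probe.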
